A study of Mus musculus with 3 samples.

Results

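The genes described here belong to the glutathione and peroxiredoxin antioxidant systems of the mouse. They were chosen by gene symbol and comprise the glutathione S-transferases, glutathione peroxidases, peroxiredoxins, thioredoxins and their reductases, superoxide dismutases, catalase, the 4 enzyme genes of glutathione synthesis and recycling, and Nfe2l2, Nqo1 and Hmox1. The rule found 54 of the 36808 genes in the deposited tables. Messenger RNA had been sequenced from whole cultures of the D3 embryonic stem (ES) cell line, whose donor strain is labelled (C3H/HeH x 101/H)F1. The 3 groups were Brachyury knockdown embryoid bodies (EBs, clumps formed by differentiating ES cells) at day 4, control EBs of wildtype genotype at day 4, and wildtype ES cells at day 0. Brachyury is a T-box transcription factor, the product of the gene T, and is needed for mesoderm formation. The control EBs are named nontarget in the table that holds the knockdown, and how the knockdown was made is not given in the sources used here. Each group was 1 library of 1 cell line, which leaves the differences without a check between replicates, and none was tested.

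Cells use these systems to remove reactive oxygen species and electrophiles. Superoxide dismutases turn superoxide into hydrogen peroxide, which catalase, glutathione peroxidases and peroxiredoxins reduce further. Glutathione peroxidases draw on reduced glutathione, most peroxiredoxins draw on thioredoxin, and glutathione reductase and thioredoxin reductases restore both with NADPH. Glutathione S-transferases attach glutathione to reactive compounds. The transcription factor NRF2, encoded by Nfe2l2, induces many of these genes through a DNA motif called the antioxidant response element, and its protein is mainly controlled by degradation rather than by its mRNA level.

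Levels are given as FPKM, fragments counted per kilobase of transcript and scaled to library size, which allows levels of genes to be compared within a library. The ES cells and control EBs stand in a first table, and the control EBs and knockdown EBs in a second, so the control library was quantified in both. Read counts are not listed, so sequencing depth is unknown here. The FPKM of all genes summed to 760578 in knockdown EBs, 786277 and 781453 in the second and first quantification of control EBs, and 568352 in ES cells. T was at 2.47 FPKM in knockdown EBs, 254 FPKM in control EBs and 0.297 FPKM in ES cells, in the direction of the labels. Relative to ES cells, control EBs had lower levels of all 7 undifferentiated ES cell markers and higher levels of all 7 streak and epiblast markers, by the size rule below. Markers of fibroblasts, which can serve as feeders, summed to 16.1 FPKM in knockdown EBs, 4.12 FPKM in control EBs and 2.91 FPKM in ES cells. Dcn and Thy1 were at 9.12 and 6.45 FPKM in knockdown EBs. Col1a1, Col1a2 and Postn were under 1 FPKM in every library, and Col3a1 and Lum were listed at 0 in every column.

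A gene was compared where it reached 1 FPKM in either library of a table, and it was called higher or lower when log2(FPKM + 1) differed by 1 or more, a 2-fold change on that scale that understates the change of low genes. Ratios in the text are those of the FPKM themselves. The p-values quoted are unadjusted ones from the authors' deposited table, and they compare 2 libraries, not 2 conditions. In whole cultures, fewer cells of a type and less RNA per cell cannot be told apart.

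Most of the antioxidant genes were expressed, and a few dominated their families. At least 1 FPKM was reached in some library by 46 of the 54 genes and at least 5 FPKM by 41. In knockdown EBs the highest were Prdx1 at 807 FPKM, Gpx1 at 650.0 FPKM, Sod1 at 571 FPKM and Prdx2 at 544 FPKM. In control EBs they were Gpx1 at 560.1 FPKM, Prdx1 at 469 FPKM, Sod1 at 439 FPKM and Prdx2 at 433 FPKM. In ES cells they were Sod1 at 447 FPKM, the glutathione S-transferase gene Gsta4 at 407 FPKM, Prdx1 at 375 FPKM and Gpx1 at 362 FPKM. Thus Gpx1, Prdx1 and Sod1 were among the 4 highest in every library, whereas Gsta4 was among them in ES cells alone and Prdx2 in the EBs.

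The remaining 13 genes stayed under 5 FPKM in all libraries. Of these, 6 were listed at 0 in every column, namely Gpx5, Gsta1, Gsta2, Gstt4, Sod3 (the extracellular superoxide dismutase) and Txnrd2 (the mitochondrial thioredoxin reductase). The other 7 were Gpx6, Gsta3, Gstm3, Gstm6, Gsto2, Mgst2 and Txnrd3, with a highest value of 3.47 FPKM, that of Txnrd3 in ES cells. A listed 0 can be a failed estimate, and Txnrd2 lies in a deposited locus of 5 genes. Gpx2 was listed at 0 for control EBs in the first table and at 7.03 FPKM for the same library in the second, in a locus of 4 genes. Gsto1 and Gsto2, which share a locus of 4 genes, were the reverse, at 21.3 and 1.0 FPKM for control EBs in the first table and listed at 0 in the second. For these 3 members the 2 quantifications of the control library were more than 1.5-fold apart, on FPKM + 1, while 45 of the 54 matched within 1%. The 45 include the 6 listed at 0 in every column, whose match holds by definition.

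**Figure D1:**
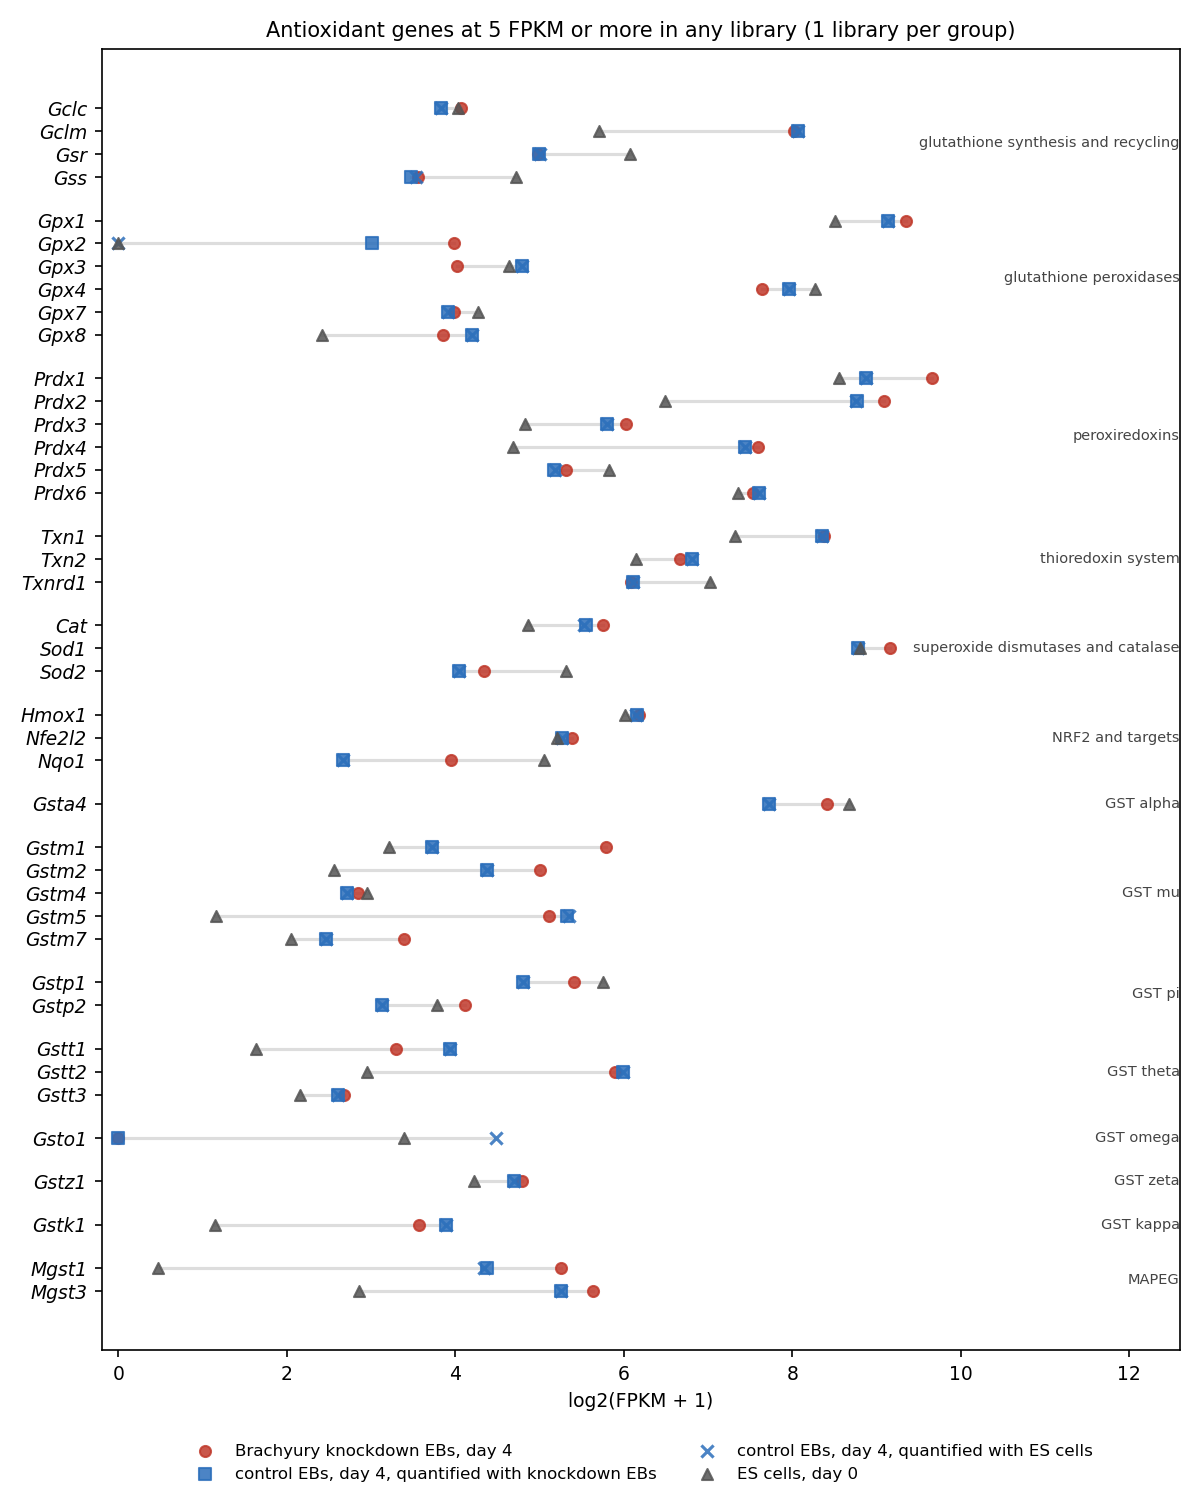
Level of each antioxidant gene that reached 5 FPKM in any library, as log2(FPKM + 1), by family. Each symbol is 1 library, and the square and the cross are the same control EB library quantified in the second and the first table. Gstm5, Mgst1, Gstk1, Prdx4 and Gclm show wide gaps between EBs and ES cells, and Gstm1 and Nqo1 the widest between knockdown and control EBs among genes at 5 FPKM or more.

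The promoters of 5 of these genes are shown because the results below turn on them. Gclm and Gstm5 were called higher in control EBs relative to ES cells, Gstm1 and Nqo1 were the 2 genes called higher in knockdown EBs, and Prdx1 had the highest level in knockdown EBs. Each window runs from 250 bases before to 50 bases after a gene start, 5′ to 3′ on the gene's strand, from RefSeq on GRCm38.p6. Capitals mark matches of the antioxidant response element core TGACNNNGC, searched on both strands.
Gclm: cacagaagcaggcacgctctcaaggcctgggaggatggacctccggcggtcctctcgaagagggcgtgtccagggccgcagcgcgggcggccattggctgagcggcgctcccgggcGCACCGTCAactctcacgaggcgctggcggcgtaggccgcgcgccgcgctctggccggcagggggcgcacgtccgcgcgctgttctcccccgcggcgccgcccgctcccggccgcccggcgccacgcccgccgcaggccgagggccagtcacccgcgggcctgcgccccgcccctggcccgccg
Gstm5: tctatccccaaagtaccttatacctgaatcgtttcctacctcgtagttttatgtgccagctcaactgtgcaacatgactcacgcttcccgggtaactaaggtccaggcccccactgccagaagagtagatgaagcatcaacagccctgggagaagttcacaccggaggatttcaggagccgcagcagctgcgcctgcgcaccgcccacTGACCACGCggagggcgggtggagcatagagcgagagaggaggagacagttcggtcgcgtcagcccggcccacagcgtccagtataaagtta
Prdx1: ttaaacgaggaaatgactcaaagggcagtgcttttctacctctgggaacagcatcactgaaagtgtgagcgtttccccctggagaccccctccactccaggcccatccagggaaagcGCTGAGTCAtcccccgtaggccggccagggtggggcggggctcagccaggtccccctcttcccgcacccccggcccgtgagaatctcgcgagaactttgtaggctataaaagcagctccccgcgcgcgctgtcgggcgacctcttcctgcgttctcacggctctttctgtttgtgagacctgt
Gstm1: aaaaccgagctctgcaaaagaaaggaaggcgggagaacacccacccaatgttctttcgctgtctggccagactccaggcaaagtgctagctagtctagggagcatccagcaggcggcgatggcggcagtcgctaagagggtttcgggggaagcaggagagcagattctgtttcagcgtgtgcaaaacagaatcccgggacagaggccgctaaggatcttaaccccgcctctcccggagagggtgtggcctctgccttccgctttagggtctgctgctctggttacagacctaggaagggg
Nqo1: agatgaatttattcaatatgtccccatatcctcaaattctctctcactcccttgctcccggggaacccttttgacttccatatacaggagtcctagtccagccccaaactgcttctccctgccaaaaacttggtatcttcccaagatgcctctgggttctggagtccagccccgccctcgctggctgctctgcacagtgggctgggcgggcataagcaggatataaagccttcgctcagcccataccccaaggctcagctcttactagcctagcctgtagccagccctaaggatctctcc
The windows lie at chr3:122245307-122245606 on the plus strand for Gclm, chr3:107895604-107895903 on the plus strand for Gstm5, chr4:116685349-116685648 on the plus strand for Prdx1, chr3:108017924-108018223 on the minus strand for Gstm1, and chr8:107403156-107403455 on the minus strand for Nqo1. For Gstm1 it is the first of 2 windows listed.

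The match began 134 bases before the start in Gclm, 133 bases before it in Prdx1 and 42 bases before it in Gstm5. In Gclm and Prdx1 it lay on the opposite strand, so the capitals show its reverse complement. The windows of Gstm1 and Nqo1 held no match of these letters. Of the 54 genes 47 had a window in the table, and 9 of these 47 (19.1%) held a match in any window, against 14% of all 27025 genes there. The other 6 were Gsta3, Gstm7, Mgst1, Nfe2l2, Sod1 and Txnrd1. A match is a string of letters and not a measured binding site, and elements outside the window were not searched.

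Control EBs at day 4 were first set against ES cells at day 0, which asks how the antioxidant genes differed after 4 days of differentiation. Of 45 compared genes, 14 were called higher in control EBs (31.1%), against 15.8% of all 13927 genes compared. Called lower were 5 (11.1%), against 19.5% of all genes, and 26 were within 2-fold. The 14 include Gsto1 and Gsto2, whose control value was listed at 0 in the other quantification. Without genes whose control values were more than 1.5-fold apart, 12 of 43 were higher (27.9%), against 15.8% of all genes. At that setting 5 were lower (11.6%), against 19.5%. The median difference was 0.41 over the 45 genes, against −0.10 over all genes compared. Without a floor it was 0.41 over the 47 members above 0 in either library, against −0.009 over 18392 such genes. Over all 54 members, those listed at 0 included, it was 0.25. A gene that passed the floor through 1 library alone is more likely to differ, so these counts describe the genes that passed it and support nothing about the rest. The split also depended on the scaling. With every library scaled to the same FPKM sum, 12 were called higher and 11 lower, or 52.2% higher among the called genes against 73.7% as deposited. The 12 were 26.7% of the members, against 10.9% of all genes, and the 11 were 24.4%, against 32.2% of all genes, while the median of all genes moved to −0.525. With an unadjusted p under 0.05 in the authors' deposited table also required, 14 were higher, against 11.9% of all genes, and 4 lower, against 13.9%. By that p alone 19 genes (42.2%) were higher, against 17.7% of all genes, and 9 lower, against 19.6%.

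In glutathione synthesis and recycling, 1 gene was higher and 2 were lower. Gclm, the modifier subunit of glutamate-cysteine ligase, the rate-limiting enzyme of glutathione synthesis, was at 267 FPKM in control EBs and 51.3 FPKM in ES cells, a ratio of 5.19. Its deposited locus holds 3 genes (chromosome 3, 121948475 to 121996467 on mm9). Gclc, the catalytic subunit of the same enzyme, was at 13.2 FPKM in control EBs and 15.3 FPKM in ES cells. The level of Gclm over that of Gclc was therefore 20.2 in control EBs and 3.36 in ES cells. Gss, glutathione synthetase, was 2.40-fold lower, at 10.5 FPKM in control EBs and 25.3 FPKM in ES cells, in a locus of 7 genes. Gsr, glutathione reductase, was 2.13-fold lower, at 31.2 FPKM in control EBs and 66.4 FPKM in ES cells, and was within 2-fold when the median ratio of all genes was scaled to 1.

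Of the 6 peroxiredoxins, 2 were called higher in control EBs, 0 lower and 4 were within 2-fold. Prdx4, the peroxiredoxin of the endoplasmic reticulum, was at 173 FPKM in control EBs and 24.6 FPKM in ES cells, a ratio of 7.0. Prdx2, a cytosolic peroxiredoxin, was at 430.1 FPKM in control EBs and 88.6 FPKM in ES cells, a ratio of 4.85. Prdx3, the mitochondrial member, fell just short of the threshold, at 54.7 FPKM in control EBs and 27.3 FPKM in ES cells, and passed it with a pseudocount of 0.1 or with the median ratio scaled to 1. Prdx1 was at 468 FPKM in control EBs and 375 FPKM in ES cells, and Prdx6, which reduces phospholipid hydroperoxides, at 194 and 162 FPKM. Prdx5, which is found in mitochondria and peroxisomes, was the 1 member with a lower value, at 35.2 FPKM in control EBs and 55.9 FPKM in ES cells. Its difference was −0.65, and with equal FPKM sums it was −1.11 and called lower. Prdx1 made up 34.6% of the summed peroxiredoxin FPKM in control EBs and 51.1% in ES cells, while Prdx2 made up 31.7% and 12.1%.

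Thioredoxin and its reductase went in opposite directions. Txn1, cytosolic thioredoxin, was called higher, at 327 FPKM in control EBs and 158 FPKM in ES cells, a ratio of 2.07. Txnrd1, the cytosolic selenoprotein that reduces it, was 1.90-fold lower and within the threshold, at 67.8 FPKM in control EBs and 129 FPKM in ES cells. The level of Txn1 over that of Txnrd1 was 4.83 in control EBs and 1.23 in ES cells. With equal FPKM sums the calls changed, Txn1 being within 2-fold at 0.59 and Txnrd1 lower at −1.38. The mitochondrial thioredoxin gene Txn2 was at 111 FPKM in control EBs and 70.0 FPKM in ES cells.

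Among glutathione peroxidases 1 of 8 was called higher, 4 were within 2-fold and 3 were not compared. Gpx8, a membrane protein of the endoplasmic reticulum, was at 17.4 FPKM in control EBs and 4.36 FPKM in ES cells, in a locus of 6 genes. The cytosolic selenoenzyme Gpx1 was at 560.1 FPKM in control EBs and 362 FPKM in ES cells. Gpx4, which reduces lipid hydroperoxides in membranes and protects against ferroptosis, was at 248 FPKM in control EBs and 309 FPKM in ES cells. Gpx1 over Gpx4 was thus 2.26 in control EBs and 1.17 in ES cells. Gpx3, the secreted form, was at 26.7 FPKM in control EBs and 23.8 FPKM in ES cells, and Gpx7 at 14.1 and 18.2 FPKM.

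Sod2, the mitochondrial manganese superoxide dismutase, was 2.50-fold lower, at 15.5 FPKM in control EBs and 38.7 FPKM in ES cells. Sod1, the cytosolic copper and zinc enzyme, was at 439 FPKM in control EBs and 447 FPKM in ES cells. Catalase, encoded by Cat, was at 45.3 FPKM in control EBs and 28.02 FPKM in ES cells. Sod1 over Sod2 was 28.3 in control EBs and 11.5 in ES cells.

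Nfe2l2 itself was level, at 37.4 FPKM in control EBs and 35.9 FPKM in ES cells, as was Hmox1, heme oxygenase 1, at 69.8 and 63.7 FPKM. Nqo1, a quinone reductase and a classical NRF2 target, was 5.98-fold lower, at 5.36 FPKM in control EBs and 32.0 FPKM in ES cells (p = 0.000127 in the authors' deposited table). It had the most negative difference of the 45 genes, and it was the 1 gene still called lower with a 3-fold rule. Gclm, also described as an NRF2 target, was higher, as given above.

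As deposited, the summed level of the glutathione S-transferases was similar while their make-up differed. The 22 genes other than the omega class summed to 508 FPKM in control EBs and 539 FPKM in ES cells. All genes together summed to 781453 and 568352 FPKM, so with equal FPKM sums the transferase total would be lower in control EBs. Of all 24, 9 were called higher, 1 lower, 10 were within 2-fold and 4 were not compared. Gsta4, the alpha-class enzyme that conjugates 4-hydroxynonenal from lipid peroxidation, made up 41.6% of the sum in control EBs and 75.5% in ES cells. Its level was 211 FPKM in control EBs and 407 FPKM in ES cells, 1.93-fold lower and just within the threshold. The pi-class gene Gstp1 was likewise 1.97-fold lower, at 26.9 FPKM in control EBs and 52.9 FPKM in ES cells. Both were called lower with equal FPKM sums.

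The higher transferase genes came from several classes. Gstm5 of the mu class was at 39.7 FPKM in control EBs and 1.23 FPKM in ES cells, a difference of 4.19 on the log2 scale and the greatest of the 45 genes. Mgst1, a microsomal membrane enzyme, was at 19.3 FPKM in control EBs and 0.388 FPKM in ES cells, and its ratio of 49.7 rests on a value under 1 FPKM. Its relative Mgst3 was at 37.0 FPKM in control EBs and 6.24 FPKM in ES cells. The theta-class genes Gstt2 and Gstt1 were at 62.5 and 14.3 FPKM in control EBs, against 6.72 and 2.09 FPKM in ES cells. Gstk1, a mitochondrial and peroxisomal enzyme, was at 13.8 FPKM in control EBs and 1.21 FPKM in ES cells, and Gstm2 at 19.8 and 4.89 FPKM. The MAPEG family of microsomal enzymes summed to 56.7 FPKM in control EBs and 6.63 FPKM in ES cells, and the theta class to 81.9 and 12.3 FPKM.

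Gsto1 and Gsto2 were also called higher, but their values stand in the first table alone. Gsto1 was at 21.3 FPKM in control EBs and 9.46 FPKM in ES cells. Gsto2 was at 1.0 FPKM in control EBs and listed at 0 in ES cells. Gsta3 was called lower at 0.511 FPKM in control EBs and 3.24 FPKM in ES cells. Its p of 0.221, from the authors' deposited table, was the 1 among the 19 called genes that was not under 0.05. Gstz1, which also acts in tyrosine breakdown, was at 24.9 FPKM in control EBs and 17.7 FPKM in ES cells.

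**Figure D2:**
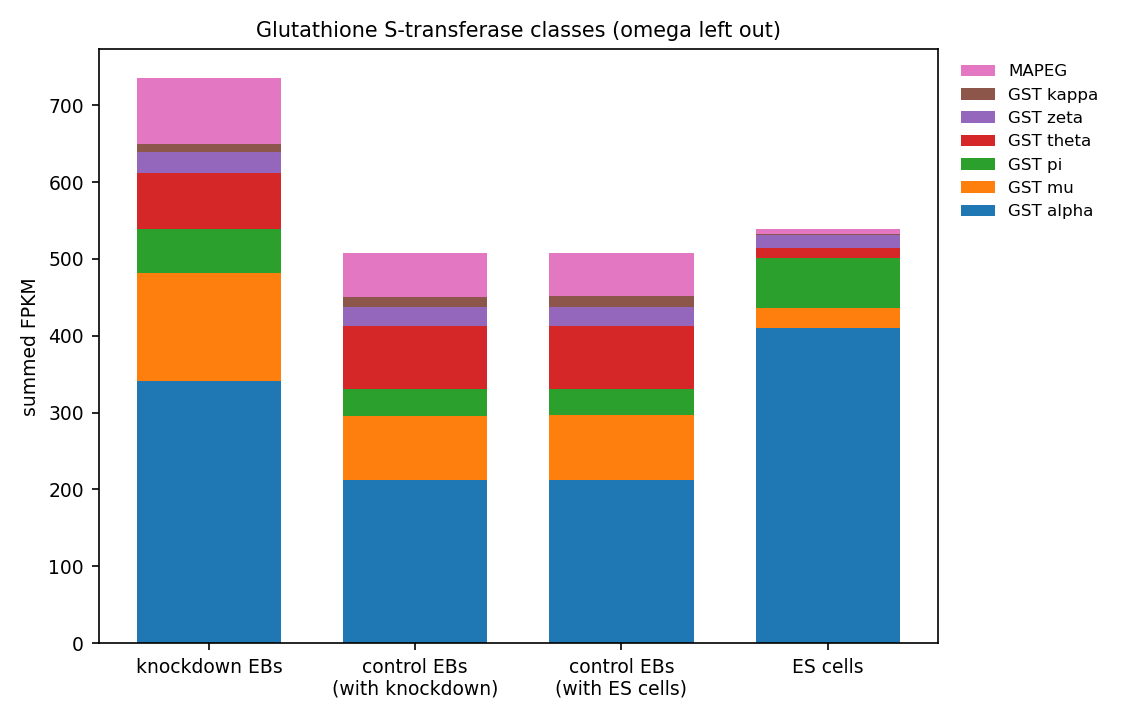
Summed FPKM of the glutathione S-transferase classes in each library, with the omega class left out because it was listed at 0 in 1 table. MAPEG is the microsomal membrane family. The alpha class, nearly all Gsta4, was at 212 FPKM in control EBs, against 410.1 FPKM in ES cells, while the theta, mu and MAPEG classes were larger in the EBs.

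Other genes around these systems were called about as often as all genes in the same comparison. Of 67 genes in 5 lists, 62 were compared, and 9 were higher (14.5%) and 14 lower (22.6%) in control EBs, against 15.8% and 19.5% of all genes, with a median of −0.06. The list of cystine uptake, glutathione export and turnover had 6 of 11 lower and 1 higher (median −1.61). The lower genes included Abcc4, an exporter of the ABC family, at 1.74 FPKM in control EBs and 25.4 FPKM in ES cells. They also included Chac1, which cleaves glutathione and is induced by ATF4, at 2.06 and 22.2 FPKM, and the aminopeptidase gene Anpep at 0.647 and 10.7 FPKM. Of 24 other redox and NRF2 target genes 3 were higher and 4 lower, with glutaredoxin, encoded by Glrx, at 35.6 FPKM in control EBs and 4.35 FPKM in ES cells. Of 10 NRF2 regulators and partners 2 were higher and 2 lower, with Bach2, a repressor that binds related DNA motifs, at 8.03 FPKM in control EBs and 0.510 FPKM in ES cells. Of 8 selenoprotein genes and synthesis factors 2 were higher and 1 lower, with Sepp1, selenoprotein P, at 17.1 and 1.97 FPKM. Of 9 genes of NADPH supply 1 was higher and 1 lower.

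Knockdown EBs were then set against control EBs, which asks how the antioxidant genes differed when Brachyury was reduced. Of 44 compared genes, 2 were called higher (4.55%), against 5.34% of all 13773 genes compared. None was called lower, against 2.53% of all genes, and 42 were within 2-fold. The shares of called members were thus close to or below those of all genes. The median difference was 0.15 over the 44 genes, against 0.06 over all genes compared. Without a floor it was 0.15 over the 46 members above 0 in either library, against 0.06 over 18786 such genes. Over all 54 members, those listed at 0 included, it was 0.09. With an unadjusted p under 0.05 in the authors' deposited table also required, 1 was higher, against 2.77% of all genes, and 0 lower, against 1.44%.

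**Figure D3:**
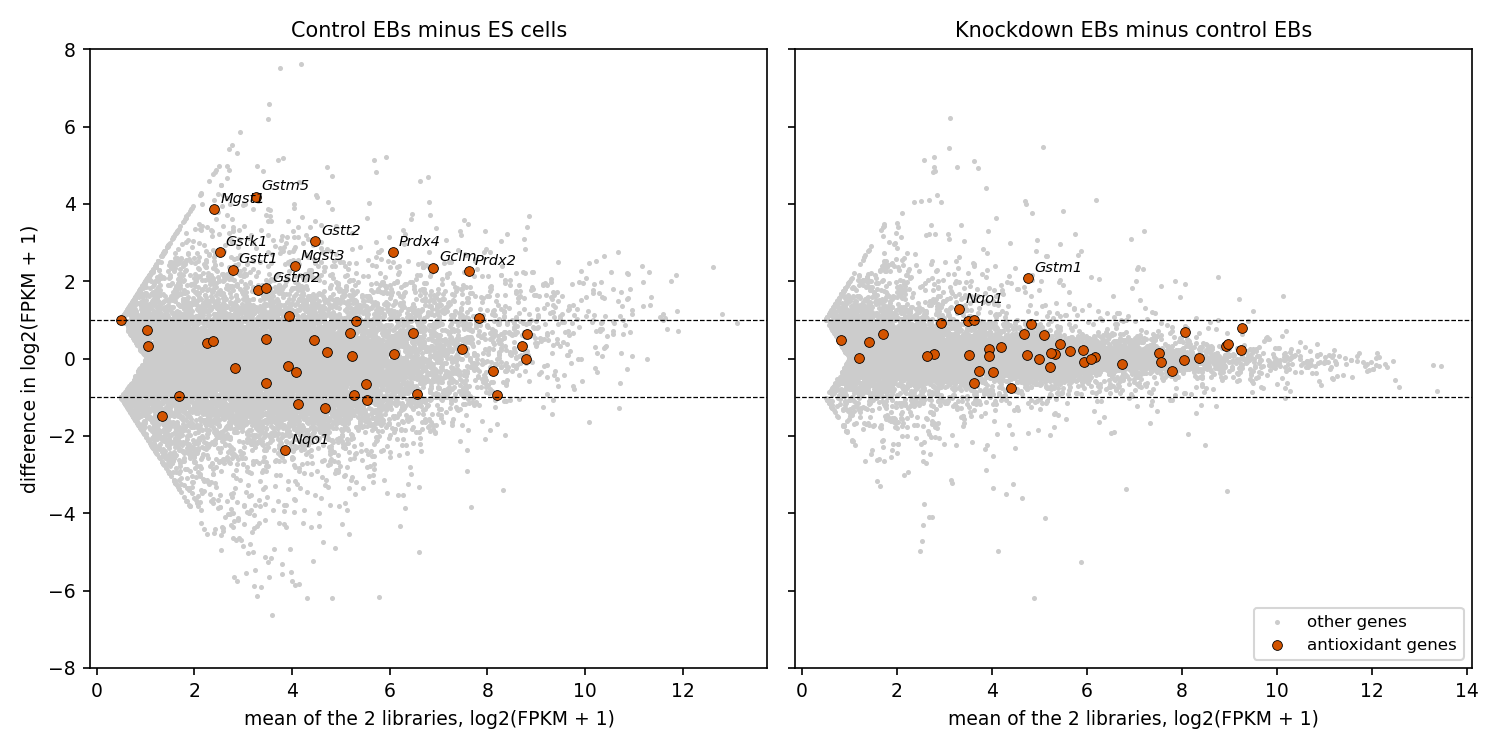
Difference in log2(FPKM + 1) against mean level for all compared genes (grey) and the antioxidant genes (orange), for control EBs minus ES cells on the left and knockdown EBs minus control EBs on the right. Dashed lines mark a difference of 1 in either direction. The antioxidant genes spread from −2.38 to 4.19 on the left, and on the right Gstm1 at 2.07 and Nqo1 at 1.28 lie above the upper line.

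Gstm1, a mu-class glutathione S-transferase, was at 54.5 FPKM in knockdown EBs and 12.2 FPKM in control EBs, a ratio of 4.46 and a difference of 2.07 (p = 2.38e-06 in the authors' deposited table). ES cells had 8.29 FPKM, so the knockdown library was the highest of the 3. The locus holds no other gene (chromosome 3, 107815173 to 107820891 on mm9), although a near-identical pseudogene exists. Gstm1 was called under every alternative setting tried, but the pseudogene has no listed FPKM, so no setting covered it. The second gene, Nqo1 (chromosome 8, 109912125 to 109927106), was at 14.4 FPKM in knockdown EBs, 5.36 FPKM in control EBs and 32.0 FPKM in ES cells. Its ratio of 2.69 between knockdown and control EBs had p = 0.0505 in the authors' deposited table, and it was not called with a 3-fold rule. The knockdown level of Nqo1 lay between those of the other 2 libraries.

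Several abundant genes were higher by less than 2-fold. Prdx1 was at 807 FPKM in knockdown EBs and 469 FPKM in control EBs, a ratio of 1.72, with p listed as 0 in the authors' deposited table. Gsta4 was at 340.5 FPKM in knockdown EBs and 211 FPKM in control EBs, a ratio of 1.61 (p = 5.04e-08 in the authors' deposited table). Sod1 was at 571 FPKM in knockdown EBs and 439 FPKM in control EBs, Prdx2 at 544 and 433 FPKM, and Gpx1 at 650.0 and 560.1 FPKM. In the table deposited by the authors, 8 of the 44 genes had an unadjusted p under 0.05 with a higher value in knockdown EBs (18.2%), against 6.19% of all genes, and 1 (2.27%) with a lower value, against 4.69%. The lower gene was Gpx4, at 198 FPKM in knockdown EBs and 248 FPKM in control EBs. Of these 9 genes, the 6 other than Gstm1, Mgst1 and Gpx2 were at 198 FPKM or more in both libraries.

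Of the lower values, Gpx3 was the most distant, at 15.3 FPKM in knockdown EBs and 26.7 FPKM in control EBs (p = 0.0813 in the authors' deposited table). Gstt1 was at 8.83 FPKM in knockdown EBs and 14.2 FPKM in control EBs. Just under the upper threshold were Gstp2, at 16.4 FPKM in knockdown EBs and 7.78 FPKM in control EBs, Gpx2 at 14.8 and 7.03 FPKM, and Gstm7 at 9.48 and 4.50 FPKM. These 3 passed it with a pseudocount of 0.1 or with equal FPKM sums. Mgst1 was at 37.3 FPKM in knockdown EBs and 19.8 FPKM in control EBs.

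Genes of glutathione synthesis and recycling, Txn1, Txnrd1, Nfe2l2 and Hmox1 were within 2-fold between knockdown and control EBs, unlike Nqo1. Gclm was at 258 FPKM in knockdown EBs and 267 FPKM in control EBs, Gsr at 30.6 and 30.8 FPKM, Gss at 10.8 and 10.2 FPKM, and Gclc at 15.7 and 13.2 FPKM. Txn1 was at 330.1 FPKM in knockdown EBs and 327 FPKM in control EBs, and Txnrd1 at 67.1 and 67.8 FPKM. Nfe2l2 was at 40.8 FPKM in knockdown EBs and 37.4 FPKM in control EBs, and Hmox1 at 71.7 and 70.2 FPKM. The ratios of these 8 genes lay between 0.967 and 1.19, including those whose level stood far from that of ES cells. Prdx4 was at 192 and 173 FPKM, Prdx3 at 64.0 and 54.7 FPKM, Prdx5 at 38.8 and 35.0 FPKM, and Prdx6 at 184 and 194 FPKM. Catalase mRNA was at 52.8 FPKM in knockdown EBs and 45.8 FPKM in control EBs, and Sod2 at 19.3 and 15.5 FPKM.

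The summed level of the 22 glutathione S-transferase genes outside the omega class was 736 FPKM in knockdown EBs and 508 FPKM in control EBs. The alpha class summed to 342 and 212 FPKM, the mu class to 139.9 and 84.1 FPKM, and the pi class to 58.0 and 34.6 FPKM. The theta class was level, at 72.9 FPKM in knockdown EBs and 81.9 FPKM in control EBs. Within it Gstt2 was at 58.7 and 62.5 FPKM and Gstt3 at 5.39 and 5.08 FPKM. Gstk1 was at 10.8 FPKM in knockdown EBs and 13.8 FPKM in control EBs, Gstz1 at 26.8 and 24.9 FPKM, and Mgst3 at 48.5 and 37.0 FPKM. Gpx7 was at 14.8 and 14.0 FPKM, and Gpx8 at 13.5 and 17.4 FPKM.

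The abundant alpha- and pi-class genes had their lowest value in control EBs, and Gstp2 had its highest in knockdown EBs. Gsta4 was at 340.5 FPKM in knockdown EBs, 211 FPKM in control EBs and 407 FPKM in ES cells. Gstp1 was at 41.6 FPKM in knockdown EBs, 26.9 FPKM in control EBs and 52.9 FPKM in ES cells, and Gstp2 at 16.4, 7.78 and 12.7 FPKM. The comparisons share the control library, so a high or low control value moves both, and levels set across the tables come from separate quantifications. Gstp1 and Gstp2 transcripts are 98.2% identical over 707 bases, so reads may have been divided between them. Their sum was 58.0 FPKM in knockdown EBs, 34.6 FPKM in control EBs and 65.6 FPKM in ES cells.

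Cell type markers differed between the EB libraries as well. Of the 7 streak and epiblast markers, 3 were lower in knockdown EBs, namely T, Fgf8 at 48.1 FPKM against 183 FPKM in control EBs, and Mixl1 at 3.10 against 11.97 FPKM. Otx2 was higher, at 218 FPKM in knockdown EBs and 107 FPKM in control EBs, and the 7 summed to 432 and 752 FPKM. Of 9 extraembryonic endoderm markers 7 were compared, and 3 were called higher in knockdown EBs and 0 lower. Of the 4 within the threshold, Amn was at 1.04 FPKM in knockdown EBs and 2.82 FPKM in control EBs. Cubn was at 0.661 and 2.09 FPKM, and Ttr at 1.02 and 1.68 FPKM, while Gata4 was higher, at 12.3 and 5.86 FPKM. The 9 markers summed to 49.1 FPKM in knockdown EBs, 21.1 FPKM in control EBs and 80.6 FPKM in ES cells. Hnf4a was at 12.2, 0.250 and 4.10 FPKM. Afp was listed at 0 in knockdown EBs, at 0.0966 FPKM in control EBs and at 0 in ES cells. Of the 7 undifferentiated ES cell markers 2 were called higher in knockdown EBs, Zfp42 at 28.5 FPKM and Esrrb at 6.69 FPKM, against 5.51 and 1.33 FPKM in control EBs. The other 5 were within the threshold. Of them Nanog was lower, at 91.7 FPKM in knockdown EBs and 128 FPKM in control EBs, as was Pou5f1, at 361 and 390 FPKM. Klf4, Tbx3 and Tfcp2l1 had higher values in knockdown EBs, all under 2 FPKM. The 7 summed to 493 and 528 FPKM. Of the 7 fibroblast markers 2 were compared. Dcn was called higher, at 9.12 FPKM in knockdown EBs and 0.253 FPKM in control EBs, and Thy1 was within the threshold, at 6.45 and 3.30 FPKM. The rest were too low to compare, among them Col1a1 at 0.0492 and 0.0366 FPKM and Col1a2 at 0.210 and 0.381 FPKM. The primitive erythroid markers, of which 3 of 5 were listed at 0 in every column, summed to 0.888 and 1.11 FPKM. The part of these cells in the higher Gstm1, Nqo1 and Gsta4 values was not tested.

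The mu-class genes lie next to each other on chromosome 3, and 5 of the 7 had the same order of libraries, highest in knockdown EBs, then control EBs, then ES cells. In order along the chromosome they are Gstm5, Gstm7, Gstm6, Gstm3, Gstm2, Gstm1 and Gstm4, and by the RefSeq windows Gstm5 at the end of the cluster is read on the plus strand and the others on the minus strand. The 5 genes, Gstm7, Gstm6, Gstm3, Gstm2 and Gstm1, are adjacent, and of them Gstm1 alone was called between knockdown and control EBs. How many of all genes share this order of libraries was not counted, so it is described for these genes only. Gstm2, inside the cluster, followed it at 31.0 FPKM in knockdown EBs, 19.8 FPKM in control EBs and 4.89 FPKM in ES cells. The genes at either end differed from this order. Gstm5 was at 33.7 FPKM in knockdown EBs, 39.2 FPKM in control EBs and 1.23 FPKM in ES cells. Gstm4, on the other side of Gstm1, was at 6.16, 5.56 and 6.75 FPKM. Thus Gstm5 was high in both EB libraries, and Gstm4 was level.

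Gstm7 was at 9.48 FPKM in knockdown EBs, 4.50 FPKM in control EBs and 3.14 FPKM in ES cells. Gstm6 and Gstm3, which share a locus of 3 genes, were at 3.08 and 2.08 FPKM in knockdown EBs, 1.63 and 1.31 FPKM in control EBs, and 0.581 and 0.835 FPKM in ES cells. Of the mu-class sum, Gstm1 made up 38.9% in knockdown EBs, 14.5% in control EBs and 32.2% in ES cells. Gstm5 made up 24.1% in knockdown EBs, 46.6% in control EBs and 4.79% in ES cells.

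**Figure D4:**
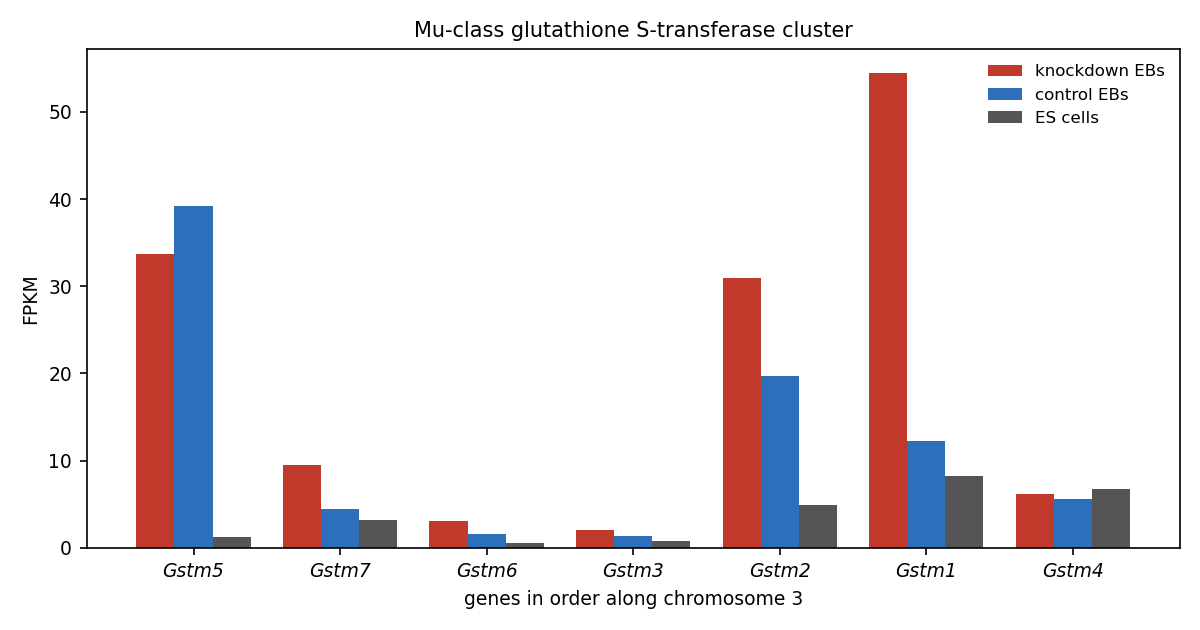
FPKM of the 7 mu-class glutathione S-transferase genes in order along chromosome 3, in knockdown EBs, control EBs (second table) and ES cells, with 1 library per bar. Gstm1 stands at 54.5 FPKM in knockdown EBs, against 12.2 FPKM in control EBs, and the 4 genes drawn before it, from Gstm7 to Gstm2, are also highest in knockdown EBs, while Gstm5 is high in both EB libraries.

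Prdx1, Prdx2 and Sod1 have processed pseudogenes of nearly the same sequence, and how reads were divided with them is not known here. Near-identical copies, with at least 95% identity over at least 200 bases of a transcript of another gene in GENCODE M21, were found for 13 of the 54 genes, and 8 of these have a copy with a row in the tables. Prdx1 shares 97.5% identity over 597 bases with the processed pseudogene Gm7204. Gm7204 was listed at 409 FPKM in knockdown EBs, 567 FPKM in control EBs and 286 FPKM in ES cells, the opposite order from Prdx1 between the EB libraries. Prdx1 and Gm7204 together summed to 1216 FPKM in knockdown EBs, 1036 FPKM in control EBs and 661 FPKM in ES cells. The difference between knockdown and control EBs was 0.23 for the sum and 0.78 for Prdx1 alone, and between control EBs and ES cells it was 0.65 and 0.32.

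Sod1 shares 97.8% identity over 465 bases with Gm8566, which was listed above Sod1 itself, at 774 FPKM in knockdown EBs, 670.1 FPKM in control EBs and 1096 FPKM in ES cells. The sum of Sod1 and Gm8566 was 1345 FPKM in knockdown EBs and 1110 FPKM in control EBs in the second table, and 1108 FPKM in control EBs and 1543 FPKM in ES cells in the first. The difference between control EBs and ES cells was −0.48 for the sum and −0.02 for Sod1 alone. Prdx2 shares 96.3% identity with Tdpx-ps1, which was at 227 FPKM in control EBs and 68.9 FPKM in ES cells in the first table and listed at 0 in both libraries of the second. The difference of Prdx2 between control EBs and ES cells was 2.05 for the sum and 2.27 alone, and it was called higher either way. FPKM of a gene and a shorter copy are scaled by different lengths, so such sums are approximate. Gpx4, Gstm1, Gstm3, Gstt3 and Txn1 also have such copies, which were not used here, so their values are uncertain in the same way. No copy of Gclm, Gstm5, Mgst1, Nqo1 or Gsta4 met these limits.

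**Figure D5:**
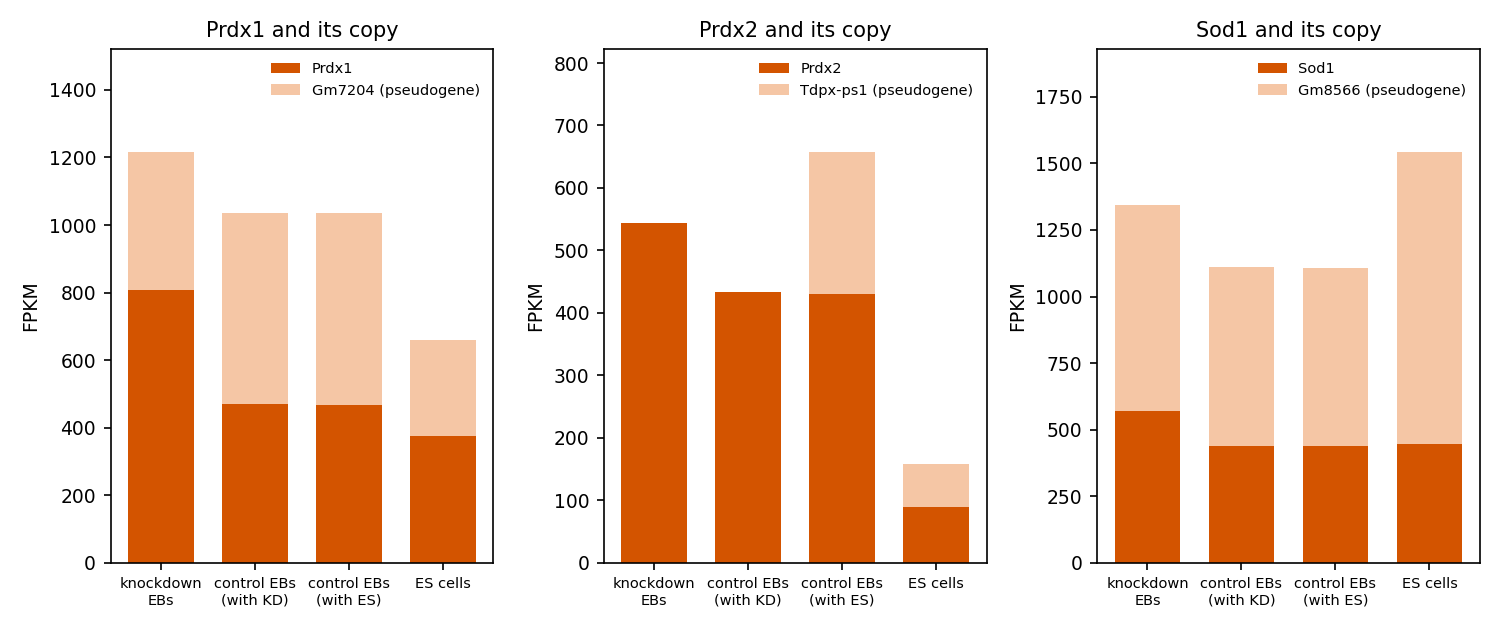
FPKM of Prdx1, Prdx2 and Sod1 (dark) with that of a near-identical processed pseudogene stacked on top (light), in each library and both quantifications of control EBs. The total for Prdx1 differs less between knockdown and control EBs, at 1216 against 1036 FPKM, than Prdx1 alone does, at 807 against 469 FPKM.

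In the lists around these systems, 1 of 61 compared genes was higher in knockdown EBs (1.64%) and 1 lower (1.64%), against 5.34% and 2.53% of all genes, with a median of 0.06. Bach2 was lower, at 1.32 FPKM in knockdown EBs and 8.34 FPKM in control EBs. Abcc4, the higher gene and chosen after its values were seen, was at 4.72 and 1.74 FPKM. Of the genes within 2-fold, Idh1, the cytosolic isocitrate dehydrogenase that yields NADPH, was at 147 FPKM in knockdown EBs and 73.8 FPKM in control EBs. Slc7a11, the cystine transporter that supplies cysteine for glutathione, was at 17.0 FPKM in knockdown EBs and 8.53 FPKM in control EBs, against 0.876 FPKM in ES cells. The glutathione exporter gene Abcc1 was at 6.70 FPKM in knockdown EBs and 12.5 FPKM in control EBs, the ferritin light chain gene Ftl1 at 1534 and 2467 FPKM, and Glrx at 23.7 and 35.6 FPKM.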

How the data were processed

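Both deposited tables hold FPKM computed by the authors for a pair of libraries. Per the submitters' processing notes, Bowtie and Cuffdiff were used with mouse build mm9, no version being named. The sources used here name neither annotation nor read number. The deposited tables also give an unadjusted p-value by the authors. Their natural log fold change was not used.

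The members and lists were chosen with earlier results of these data known. The column named EB Day4 was taken as the control library. The 25 symbols given as dates were restored through their gene IDs, short RNAs were left out, and rows of 1 symbol were summed. Every member is named, with FPKM for those at 5 FPKM or more in any library. Gsta3 and Gsto2 also have values because they were called, Gstm3 and Gstm6 because they lie in the mu cluster, and Txnrd3 as the highest of the low members. The named genes of the other lists were the 6 with the greatest difference per comparison at that level. Loci are those deposited on mm9, with 1 added to the start, and can span several genes. For 15 members the locus holds 2 or more genes, among them Gstm5, Prdx2, Prdx5 and Gsr. Promoters are on GRCm38.p6. Copies were found with BLAST 2.17.0. Calling steps in Python 3.11.15 (pandas 2.3.3) were tested on simulated data. The planted changes were above the threshold and in genes at 5 FPKM or more. The simulation therefore checked the code, not low genes or the spread between libraries. The planned significance column was replaced by an unadjusted p under 0.05. It is not known here whether reads were counted by strand.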

Additional observations from a re-analysis of the deposited data

How the results depend on the processing

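Most alternatives changed few calls, but equal FPKM sums and a 3-fold rule changed more of them between control EBs and ES cells. In control EBs against ES cells, the number of lower members was 5, but 11 with equal FPKM sums and 1 with a 3-fold rule. In knockdown against control EBs, the number of higher members was 2, but 5 with a pseudocount of 0.1, 4 with a pseudocount of 0.5, 5 with equal FPKM sums, and 1 with a 3-fold rule or with an unadjusted p under 0.05 required. The cause of these shifts was not tested beyond the construction of each rule. Over all genes, 2205 were higher and 2721 lower in the first comparison, and 735 and 349 in the second. These were 982 and 1190, and 298 and 124, with a 3-fold rule. In the second comparison they were 1169 and 540 with a pseudocount of 0.1, 403 and 230 with a floor of 5 FPKM, and 382 and 198 with the p-value required, and in the first 4753 were lower with equal sums. No called member changed sign under any alternative tried, although a different pseudocount, floor, fold rule or required p cannot change a sign. Adding near-identical copies or leaving out genes listed at 0, both chosen after seeing the data, left each of these counts within 1.5 times. No paired analysis was possible because each group was 1 library. Depth is unknown, so the precision of single low genes could not be set from counts.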
